A study of Rattus norvegicus with 10 samples.

Results

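Mitochondrial ribosomal protein genes were compared between neonatal rat cardiomyocytes that overexpressed YAP5SA and those that overexpressed YAP5SA-S94A. The members are all genes whose symbol in the deposited expression tables is Mrpl or Mrps followed by a number and at most 1 letter. This rule found 76 of 39784 gene names. Of these, 75 had a mean of at least 1 TPM (a transcript level scaled for gene length and to the same sum in every library) over the 4 libraries and were tested among 13420 genes. Mrps21l was listed at 0 in all 4 libraries and was not tested. The 75 tested members comprise 48 large subunit genes, 26 small subunit genes and Mrps36. Mrps36 carries the name of a ribosomal protein, but its product is known as a subunit of the 2-oxoglutarate dehydrogenase complex of the citric acid cycle, so values without it are given as well.

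Mitochondria carry their own ribosome, which translates the few proteins encoded by mitochondrial DNA, all of them subunits of the respiratory chain and ATP synthase. Its RNAs are encoded in the mitochondrion, whereas all of its proteins are encoded in the nucleus, made in the cytosol and imported. Some of these proteins descend from bacterial ribosomal proteins, and others were added during the evolution of mitochondria. In the heart, whose ATP comes largely from oxidative phosphorylation, this ribosome supplies the core subunits of that machinery.

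The cells were wild-type cardiomyocytes from the hearts of newborn rats, infected with the adenovirus Ad-Xon-YAP5SA or Ad-Xon-YAP5SA-S94A. YAP is a transcriptional coactivator held back by the Hippo pathway. YAP5SA is an activated form in which serines that receive inhibitory phosphorylation are replaced by alanine, and YAP5SA-S94A carries a further change that disrupts its binding to the TEAD transcription factors. The series holds 10 samples: 4 poly(A) RNA-seq libraries, 2 per form, which were used here, and 6 CUT&RUN samples, which were not analysed here. Uninfected or GFP-expressing cells were not part of the RNA-seq comparison, so a gene called higher in YAP5SA may equally have been lowered by YAP5SA-S94A. The labels call the libraries biological replicates without saying whether they came from separate isolations, so the p-values measure the spread between these libraries, which may be technical.

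The tables corresponded to 4.02 to 5.10 gigabases of aligned sequence per library. The mitochondrial chromosome contributed 7.53% and 10.2% of the TPM of YAP5SA replicates 1 and 2, compared with 12.6% and 14.0% for YAP5SA-S94A replicates 1 and 2, which leaves a larger part of the fixed sum to nuclear genes in YAP5SA. Ccn1, Ccn2 and Ankrd1, textbook YAP/TEAD targets used as a check of the labels, were higher in YAP5SA by 3.62, 1.95 and 2.22 on the log2(TPM + 1) scale (limma adjusted p of 1.39e-05, 2.17e-05 and 2.87e-05). Cardiomyocyte markers were abundant in all 4 libraries but lower in YAP5SA, with summed TPM of 20157 and 20704 against 28728 and 29265 and 8 of 11 markers called lower. The 5 proliferation markers were all called higher, with summed TPM of 156 and 177 against 45.3 and 36.5. Of the other cell types, fibroblast markers summed to 6748 to 8527 TPM over the 4 libraries (0 of 8 called higher, 2 called lower), and myeloid markers to 534 and 516 in YAP5SA against 810 and 808 in YAP5SA-S94A. Most of the myeloid sum was Lyz2 (438 and 428 TPM against 714 and 710), Cd68 was called lower too, and Csf1r was called higher (38.2 and 37.5 TPM against 14.6 and 12.9, difference 1.40). Smooth muscle and pericyte markers summed to 175 to 202 TPM and Schwann cell markers to 1.69 to 4.89. Epicardial markers summed to 57.1 and 50.2 TPM in YAP5SA against 41.6 and 40.2, with 2 of 5 called higher, Upk3b (3.75) and Msln (0.70). Endothelial markers summed to 20.8 and 23.0 TPM against 32.5 and 31.2, with Kdr called lower (-2.22) and Tek higher (1.42). Fewer cells of a type and less RNA per cell cannot be told apart in bulk samples, and the part of cell makeup in the results below was not tested.

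The mitochondrial ribosomal protein genes did not move together between the YAP forms. Of the 75 members, 6 rose in YAP5SA relative to YAP5SA-S94A and 8 fell, by limma's test with Benjamini-Hochberg adjustment over all 13420 genes and a threshold of 0.05. Among all genes tested, 32.9% were called, 17.4% higher and 15.5% lower. The corresponding shares of the members were 18.7%, 8.0% and 10.7%. The values of the YAP forms did not overlap for 49 members (65.3%), 21 higher and 28 lower in YAP5SA, against 68.2% of all genes tested. Differences are given throughout as the YAP5SA mean less the YAP5SA-S94A mean of log2(TPM + 1), with 2 libraries per form.

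The differences of the members were small. They ran from -0.72 for Mrpl15 to 0.79 for Mrps6 with a median of -0.10, and 32 members lay above 0 and 43 below. The median of all genes was 0.00. The middle of the members' distribution, from the lower to the upper quartile, reached from -0.25 to 0.17, against -0.33 to 0.34 for all genes. A difference above 0.5 in either direction was found for 9 members (12%) and for 33.9% of all genes, and a difference of 1 or more for 0 members and for 12.4% of all genes. For 72 of the 75 members the 95% confidence interval of the difference lay within a doubling or halving, that is within 1 of 0 on the log2 scale, and this held for 69.6% of all genes. The median size of the difference between replicates was 0.19 for the members in YAP5SA and 0.10 in YAP5SA-S94A. The median size of the differences between forms was 0.22. The latter are between means of 2 libraries, which vary less than single libraries. For all genes the values in the same order were 0.21, 0.11 and 0.33. With the mitochondrial chromosome left out and the remaining TPM rescaled, 6 members were called higher and 15 lower, and the median moved to -0.18 while that of all genes moved to -0.07.

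**Figure D1:**
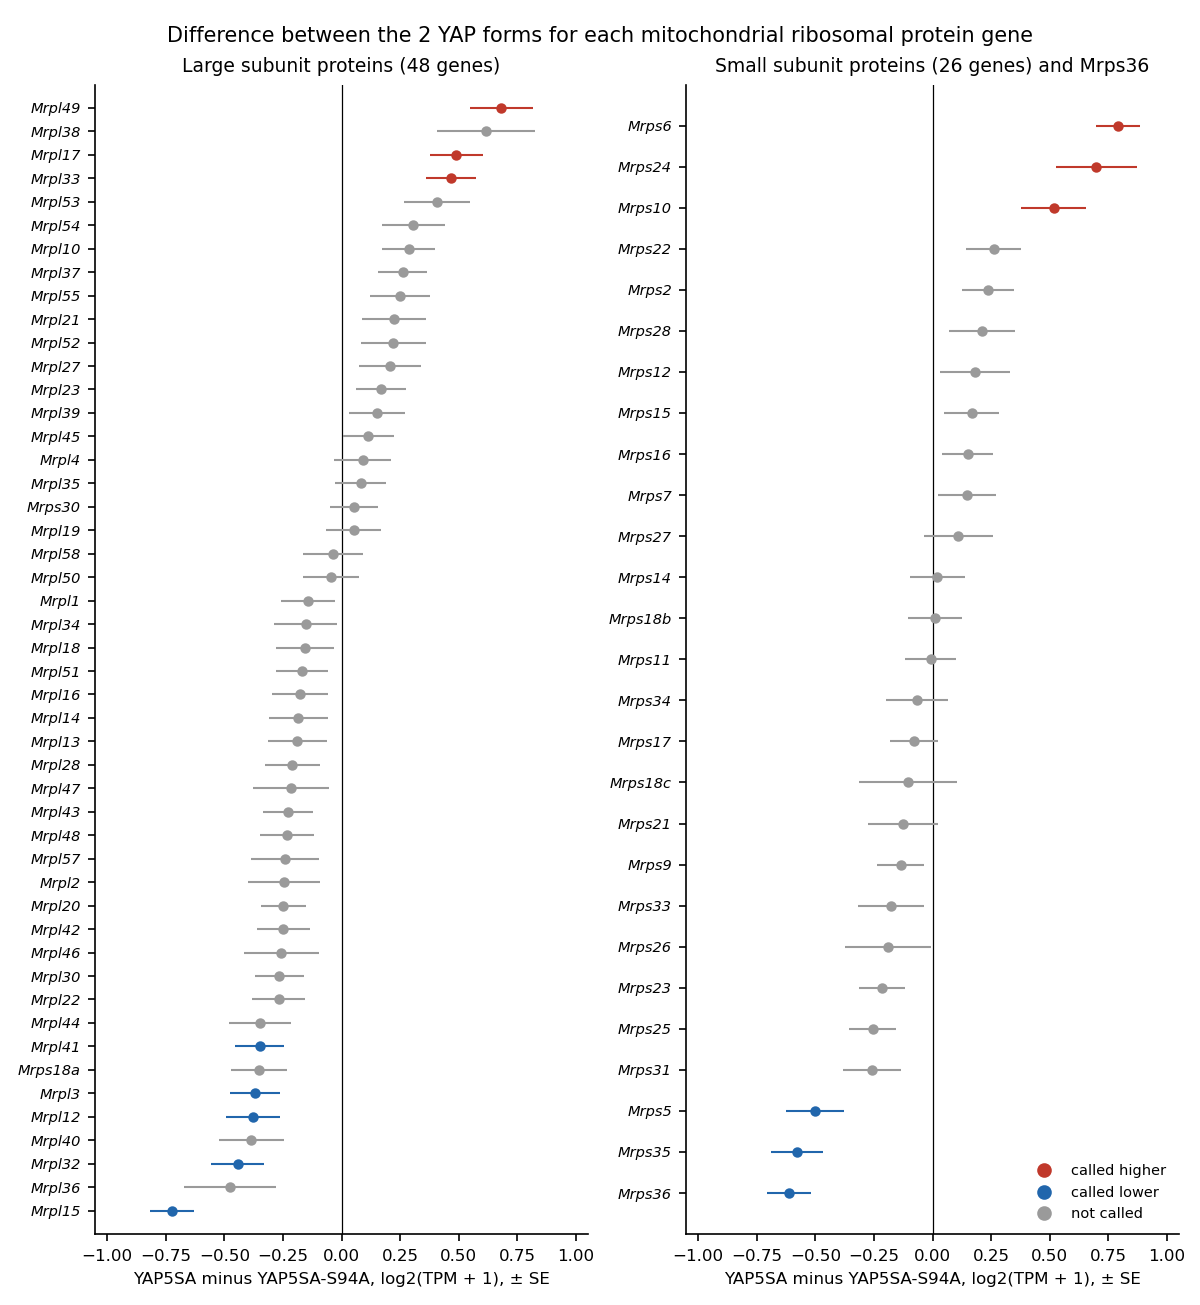
Difference in level between YAP5SA and YAP5SA-S94A on the log2(TPM + 1) scale (x axis) for each of the 75 members (y axis), large subunit on the left, small subunit and Mrps36 on the right; points are limma estimates and bars their standard errors, red called higher, blue called lower and grey not called. The members spread on both sides of 0, from -0.72 (Mrpl15) to 0.79 (Mrps6), with 6 called higher and 8 lower.

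Of the 6 members that rose, 3 encode small subunit proteins. Mrps6, a protein of the platform of the small subunit (chr11:31295358-31348483, plus strand, rat build rn7), had 167 and 175 TPM in the YAP5SA libraries and 98.9 and 97.9 in the YAP5SA-S94A libraries. The replicates lay close together and the forms far apart, with means of 171 ± 6.26 and 98.4 ± 0.733 TPM (SD, n = 2) and a difference of 0.79 ± 0.09 (SE, limma adjusted p = 8.57e-04). The Mrps6 entry overlaps that of Slc5a3, a sodium/myo-inositol cotransporter gene on the same strand, by 2447 bases, so reads in the shared stretch cannot be assigned with certainty. Slc5a3 had 9.96 and 10.4 TPM in YAP5SA against 4.86 and 5.38 in YAP5SA-S94A and was also called higher (0.87, limma adjusted p = 0.00748).

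Mrps24, the counterpart of the bacterial protein that lines the entry of the messenger into the small subunit (chr14:80584671-80588801, minus strand), had 146 and 104 TPM in YAP5SA against 82.2 and 69.1 in YAP5SA-S94A. Both YAP5SA values exceeded both others, but they were themselves far apart, and the difference of 0.70 ± 0.17 (SE) had a limma adjusted p of 0.0197. Mrps10, a protein of the head of the small subunit (chr9:13614897-13624819, minus strand), was the least abundant of all members, at 22.4 and 20.6 TPM in YAP5SA against 15.5 and 14.0 in YAP5SA-S94A. Its difference was 0.52 ± 0.14 (SE, limma adjusted p = 0.0272).

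The other 3 members that rose belong to the large subunit. Mrpl49, a protein without a bacterial counterpart (chr1:203346068-203350040, minus strand), had 51.8 and 62.1 TPM in YAP5SA against 37.0 and 33.1, a difference of 0.68 ± 0.13 (SE, limma adjusted p = 0.00770). Mrpl17, which sits near the exit of the tunnel through which new chains leave (chr1:160162181-160163870, minus strand), had 219 and 192 TPM against 155 and 137, a difference of 0.49 ± 0.11 (SE, limma adjusted p = 0.0145). Mrpl33, a small protein of bacterial ancestry (chr6:24825800-24833994, minus strand), had 256 and 299 TPM against 194 and 205, a difference of 0.47 ± 0.11 (SE, limma adjusted p = 0.0147). Mrpl33 and Mrpl17 were the most abundant members of all, with means over the 4 libraries of 239 and 175 TPM.

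Of the 8 members that fell, Mrpl15 and Mrps36 fell furthest. Mrpl15, a conserved protein of the large subunit (chr5:14729961-14741276, plus strand), had 114 and 125 TPM in YAP5SA against 196 and 198 in YAP5SA-S94A. With means of 119 ± 7.68 and 197 ± 1.34 TPM (SD, n = 2), its difference was -0.72 ± 0.10 (SE, limma adjusted p = 0.00145). Mrps36, the 2-oxoglutarate dehydrogenase subunit (chr2:31870549-31878335, minus strand), had 94.7 and 101 TPM in YAP5SA against 151 and 149 in YAP5SA-S94A, a difference of -0.61 ± 0.09 (SE, limma adjusted p = 0.00281). Without Mrps36, 74 members remain, 6 called higher and 7 lower, with a median difference of -0.09.

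Among the small subunit genes, Mrps35 and Mrps5 fell. Mrps35, a protein added in mitochondria (chr4:179958067-179988752, plus strand), had 45.1 and 48.0 TPM in YAP5SA against 66.6 and 73.7 in YAP5SA-S94A, a difference of -0.58 ± 0.11 (SE, limma adjusted p = 0.00717). Mrps5, whose bacterial counterpart takes part in the accuracy of decoding (chr3:114821046-114837291, plus strand), had 37.9 and 32.0 TPM against 50.5 and 49.0, a difference of -0.50 ± 0.12 (SE, limma adjusted p = 0.0202). In both genes every YAP5SA value lay below every YAP5SA-S94A value, and 68.2% of all genes tested were likewise separated in either direction.

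The large subunit genes that fell besides Mrpl15 differed by less. Mrpl32, which is imported as a precursor and must be cleaved by the m-AAA protease before it joins the large subunit (chr17:50565133-50568000, plus strand), had 59.1 and 69.0 TPM in YAP5SA against 86.4 and 87.9 in YAP5SA-S94A, a difference of -0.44 ± 0.11 (SE, limma adjusted p = 0.0231). Mrpl12, a protein of the stalk that recruits translation factors and a known partner of the mitochondrial RNA polymerase (chr10:105758410-105762913, plus strand), had 92.6 and 85.1 TPM against 125 and 107, a difference of -0.38 ± 0.12 (SE, limma adjusted p = 0.0435). Mrpl3, a conserved protein near the peptidyl transferase centre (chr8:105670184-105693544, plus strand), had 63.9 and 72.5 TPM against 87.3 and 89.1, a difference of -0.37 ± 0.11 (SE, limma adjusted p = 0.0369). Mrpl41, a protein added in mitochondria (chr3:7780658-7781576, minus strand), had 57.1 and 55.6 TPM against 74.7 and 69.5, a difference of -0.35 ± 0.10 (SE, limma adjusted p = 0.0382). None of these 4 genes had overlapping values between the forms, and the same held for 68.2% of all genes tested.

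Which members were called depended on single libraries. Without YAP5SA replicate 1 the call of Mrps10 was lost, and without YAP5SA replicate 2 that of Mrpl12. Without YAP5SA-S94A replicate 1 the calls of Mrpl12, Mrpl3, Mrpl32, Mrpl33, Mrpl41, Mrps10 and Mrps5 were lost. Without YAP5SA-S94A replicate 2 the calls of Mrpl12, Mrpl17, Mrpl3, Mrpl32, Mrpl41, Mrps10, Mrps35 and Mrps5 were lost. Calls of other members were gained in each of these fits. The share of genes called rose without either YAP5SA library and fell without either YAP5SA-S94A library. This held for the members and for all genes tested alike. In these fits the lone library of a form is assumed to vary like the others. Mrps6, Mrpl49, Mrpl15 and Mrps36 were called in every fit run.

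**Figure D2:**
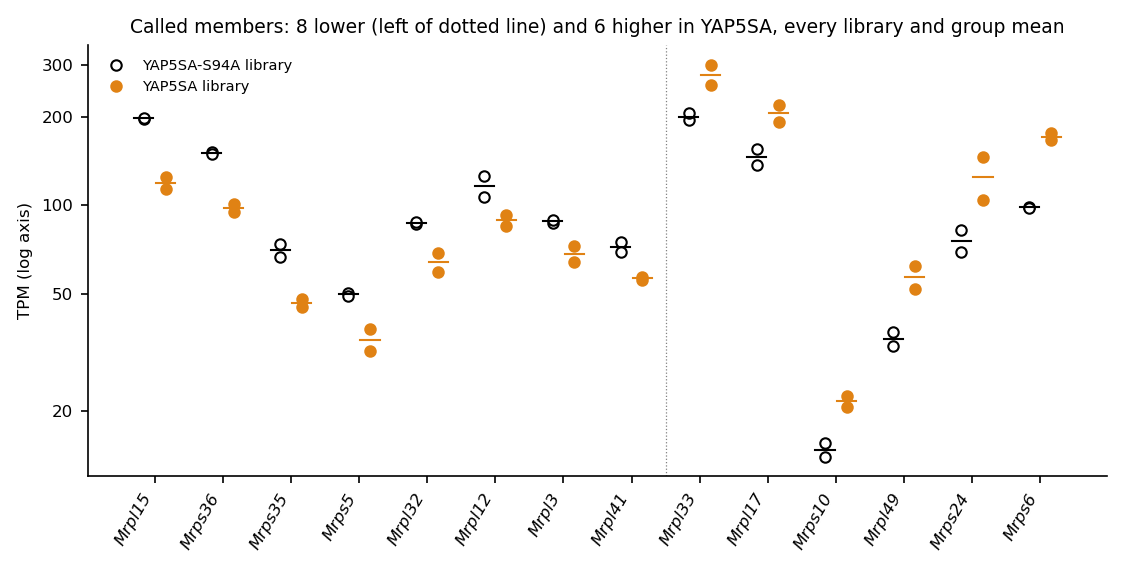
Level in TPM (y axis, log axis) of the 14 called members (x axis) in every library, open circles YAP5SA-S94A and filled circles YAP5SA, with group means as bars; the 8 members left of the dotted line were lower in YAP5SA and the 6 to its right higher. The circles of the forms do not overlap for any of the 14 genes, which were picked by their difference between the forms. Among all genes tested, 68.2% do not overlap. The YAP5SA values of Mrps24 (146 and 104 TPM) are the furthest apart on this log axis.

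Some members were listed by their site in the ribosome, and within each listed site the estimates lay on both sides of 0. Calls in both directions were found only around the decoding centre and the path of the messenger. Around the exit of the peptide tunnel, where the large subunit meets the inner membrane, 1 of 5 members was called, Mrpl17. The other 4 differed by 0.17 (Mrpl23), 0.12 (Mrpl45, which contacts the membrane), -0.22 (Mrpl47) and -0.27 (Mrpl22), with limma adjusted p between 0.115 and 0.465. In the stalk, Mrpl12 fell while Mrpl10, the protein that anchors it, had 51.7 and 48.3 TPM in YAP5SA against 42.7 and 38.9 in YAP5SA-S94A, a difference of 0.29 ± 0.11 (SE, limma adjusted p = 0.0968). Around the decoding centre and the path of the messenger, Mrps24 rose, Mrps5 fell and Mrps12, the counterpart of the bacterial protein at which streptomycin resistance arises, had 58.9 and 46.1 TPM in YAP5SA against 42.5 and 49.4, overlapping values with a difference of 0.18 ± 0.15 (SE, limma adjusted p = 0.392).

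None of the 6 members of the central protuberance, the part of the large subunit that faces the head of the small subunit, was called by limma, against 32.9% of all genes, and 1 higher and 1 lower had an unadjusted p under 0.05. Their differences were -0.38 (Mrpl40), -0.26 (Mrpl46), -0.23 (Mrpl48), -0.16 (Mrpl18), -0.04 (Mrpl58) and 0.62 (Mrpl38), with limma adjusted p between 0.0615 and 0.853. Mrpl58 is the peptidyl-tRNA hydrolase that can also release stalled chains, and its 50.9 to 60.1 TPM overlapped between the forms. Mrpl38 had the largest estimate of any member that was not called, and its YAP5SA values of 69.3 and 43.0 TPM were far apart while those of YAP5SA-S94A were 36.6 and 34.0.

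By ancestry, 42 members descend from bacterial proteins and 31 were added in mitochondria, with Mrpl55 and Mrps36 left unclassed. Of the 42 conserved members 5 rose and 5 fell, with a median difference of -0.09. Of the 31 mitochondria-specific members 1 rose, Mrpl49, and 2 fell, Mrps35 and Mrpl41, with a median of -0.17. By subunit, 3 of 48 large subunit genes rose and 5 fell, with a median of -0.16, and 3 of 26 small subunit genes rose and 2 fell. The median of the small subunit genes was 0.00 and its sign changed between scalings, from -0.07 with the mitochondrial chromosome left out to 0.00 as deposited. Called genes made up 23.8% of the conserved and 9.68% of the mitochondria-specific members, and 16.7% of the large and 19.2% of the small subunit genes. Each share lay below the 32.9% of all genes. Without YAP5SA replicate 2 the medians of the conserved and mitochondria-specific members were nearly the same, -0.0608 and -0.0586. Without each other library the mitochondria-specific median was the lower. These medians are descriptions, and the differences between the classes were not tested.

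Members differed widely in level. The median member had 64.2 TPM as the mean over the 4 libraries, against 18.8 TPM for all genes tested. After Mrpl33 and Mrpl17, the most abundant were Mrpl54, a mitochondria-specific protein of the large subunit with 159 TPM, and Mrpl15 with 158 TPM. The YAP5SA values of Mrpl54, 197 and 155 TPM, lay above its YAP5SA-S94A values of 134 and 149, but the difference of 0.31 ± 0.13 (SE) was not called (limma adjusted p = 0.121). The least abundant were Mrps10 with 18.1 TPM, Mrps27 with 18.6, Mrpl40 with 20.7 and Mrpl47 with 30.3. Mrps27, a pentatricopeptide repeat protein, had 21.2 and 17.6 TPM in YAP5SA against 18.4 and 17.3 in YAP5SA-S94A, overlapping values, and its lowest read coverage of 2.29 per base was the lowest of any member. Neighbours in this order, such as Mrpl54 and Mrpl15 or Mrps10 and Mrps27, had similar means over the 4 libraries, and their order was not tested. The order can differ between the forms. Mrpl54 lay above Mrpl15 in both YAP5SA libraries (114 and 125 TPM for Mrpl15) and below it in both YAP5SA-S94A libraries (196 and 198).

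The order of levels was largely kept between libraries. Across the 75 members, Pearson's r of the log2 levels was 0.943 between the YAP5SA libraries and 0.979 between the YAP5SA-S94A libraries. Between libraries of different forms it lay from 0.866 to 0.903, below both. The size of a member's level was nearly unrelated to its difference between forms (r = -0.013, rho = -0.069, n = 75 genes). These correlations are across genes that share their libraries and are not independent replicates.

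Summed over all members, the transcripts took nearly the same share of each library. The sum was 5582 and 5437 TPM in YAP5SA against 5702 and 5454 TPM in YAP5SA-S94A, 0.544% to 0.570% of all TPM, and the values of the forms overlapped. The means were 5509 ± 102 and 5578 ± 176 TPM (SD, n = 2), a ratio of 0.988 (two-sided exact permutation test, p = 0.667, where 0.333 is the smallest p that 2 against 2 libraries can give). Without Mrps36 the ratio was 0.997. The large subunit sum was 3655 and 3491 TPM against 3751 and 3569, a ratio of 0.976 (exact permutation test, p = 0.667). The small subunit sum was 1832 and 1845 against 1800 and 1736, a ratio of 1.04 (exact permutation test, p = 0.333). The ratio of the large to the small subunit sum was 2.00 and 1.89 in YAP5SA and 2.08 and 2.06 in YAP5SA-S94A. With the mitochondrial chromosome left out, the ratio of the sum over all members was 0.940. That of the large subunit sum was then 0.929, and that of the small subunit sum 0.990, no longer above 1.

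Other gene groups of protein synthesis and respiration differed more in their sums. The 78 cytosolic ribosomal protein genes summed to 114091 and 119343 TPM in YAP5SA against 103409 and 99398 in YAP5SA-S94A, a ratio of 1.15, with 10 called higher by limma, 0 lower (32 and 0 at an unadjusted p under 0.05) and a median difference of 0.21. The share called higher, 12.8%, was below the 17.4% of all genes. The count rests on single libraries, being 36, 17, 1 and 1 without YAP5SA replicates 1 and 2 and YAP5SA-S94A replicates 1 and 2. It was also 0 without the filter on low levels, 2 without the intensity trend and 5 with the mitochondrial chromosome left out, where the median was 0.13, and 5 on FPKM. The 36 nuclear-encoded complex I subunit genes had a ratio of 0.861, with 1 called higher, Ndufa3, and 12 lower and a median of -0.21, and the count of lower genes was 15, 17, 2 and 3 without the same libraries in turn and 4 without the intensity trend. The 13 mitochondrially encoded proteins, the products of the mitochondrial ribosome, had a ratio of 0.639, with 11 called lower by limma, 0 higher (13 and 0 at an unadjusted p under 0.05) and a median of -0.65, and 3 were called lower without the filter on low levels. These transcripts are part of the mitochondrial share given above. Of the complex I genes 36.1% were called, near the 32.9% of all genes. By direction, 2.8% were called higher and 33.3% lower, against 17.4% and 15.5% of all genes. With the mitochondrial chromosome left out, 0 complex I genes were called higher and 17 lower, with a median of -0.284. The count called higher was also 0 on FPKM, without the filter on low levels and without the intensity trend. The differences between these groups and the members were not tested.

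**Figure D3:**
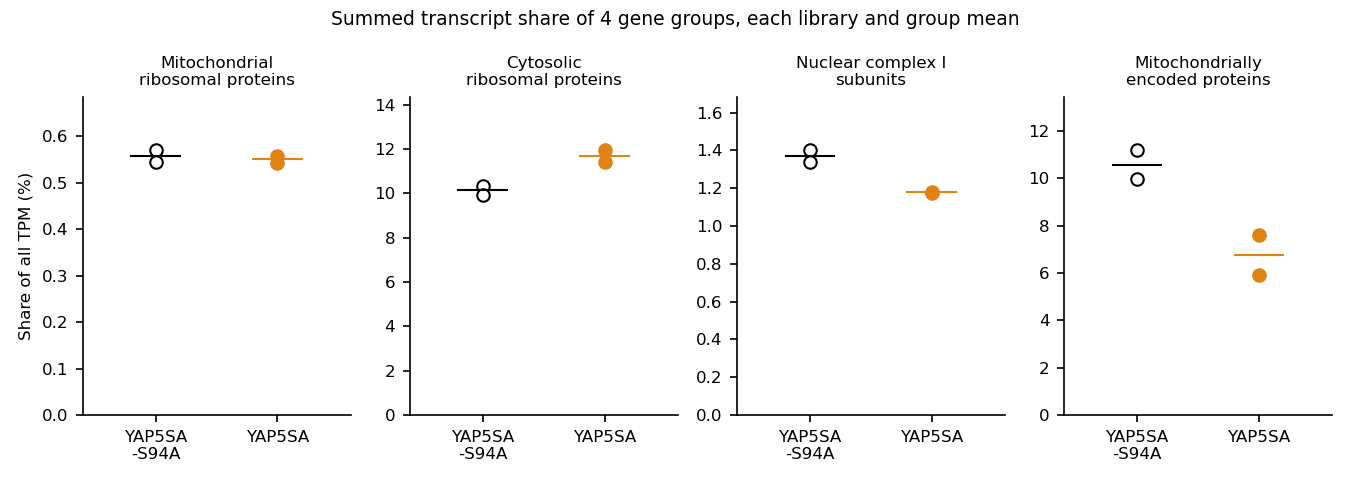
Summed share of all TPM in percent (y axis, starting at 0 with its own scale in each panel) of 4 gene groups in each library, open circles YAP5SA-S94A and filled circles YAP5SA, with group means as bars. The shares of the mitochondrial ribosomal protein genes overlap between the forms (0.544% to 0.570%), while those of the other groups do not.

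Further subunits of the mitochondrial ribosome fell outside the symbol rule. Of 5 with other names, only Chchd1, a small subunit protein, was called, at 56.4 and 71.3 TPM in YAP5SA against 93.2 and 80.7 (difference -0.45 ± 0.14 SE, limma adjusted p = 0.0491). The call of Chchd1 was lost in 9 of the 16 alternative fits, with limma adjusted p over all of them from 0.0130 to 0.276. Dap3, the GTP-binding protein of the small subunit first described in cell death, had 58.5 and 61.3 TPM against 49.4 and 48.8 and did not pass the test (0.28, limma adjusted p = 0.0771). Ptcd3, Aurkaip1 and Gadd45gip1 differed by -0.19, 0.22 and -0.11 and were not called. The tables also write 3 large subunit genes in lower case. Of these mrpl24 was called higher, at 34.3 and 32.3 TPM against 26.2 and 23.8 (0.40, limma adjusted p = 0.0441), while mrpl11, with 66.9 and 56.6 TPM against 76.9 and 75.9, and mrpl9, with 84.9 and 71.8 against 102 and 94.1, were not called. Of 42 names of mitochondrial ribosomal protein pseudogenes, 5 were above 0 in any library, with a highest level of 1.57 TPM.

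Genes that build and modify the ribosome moved in both directions as well. Of 27 assembly genes tested 2 rose and 5 fell, with a median of -0.04. Afg3l2, a subunit of the m-AAA protease that matures Mrpl32, had 48.2 and 49.8 TPM in YAP5SA against 93.0 and 97.7 in YAP5SA-S94A, a difference of -0.95 ± 0.10 (SE, limma adjusted p = 5.81e-04). Mettl15, a methyltransferase of the small subunit RNA, had 2.82 and 2.40 TPM against 6.77 and 6.46 (-1.08, limma adjusted p = 0.00566). Rpusd4, a pseudouridine synthase of the large subunit RNA, and Mettl17, a small subunit assembly factor, fell by 0.68 and 0.54 (limma adjusted p = 0.0134 and 0.0166). The remaining called genes of the list, named after their values were seen, were Ngrn (-0.51), also lower, and the RNA methyltransferase genes Tfb1m (0.74) and Mrm3 (0.64), both higher.

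Of 17 genes for translation factors, messenger stability and membrane insertion of new chains, 0 rose and 2 fell in limma's test (1 and 3 at an unadjusted p under 0.05), with a median of -0.20. Oxa1l, the inner membrane insertase that receives chains from the ribosome, had 136 and 118 TPM in YAP5SA against 223 and 211 in YAP5SA-S94A, a difference of -0.77 ± 0.10 (SE, limma adjusted p = 0.00160). Lrpprc, which stabilises mitochondrial messengers, had 49.2 and 52.1 TPM against 70.5 and 73.6 (-0.50, limma adjusted p = 0.0100). Of 21 genes of mitochondrial transcription and RNA processing 0 rose and 4 fell (1 and 7 at an unadjusted p under 0.05 in limma's test), with a median of -0.18. They were Grsf1, an RNA-binding protein of the mitochondrial RNA granules (93.9 and 100.3 TPM against 165 and 165, difference -0.76, limma adjusted p = 0.00109), Prorp, the nuclease of mitochondrial RNase P (-0.56), Fastkd1 (-0.51) and the RNA helicase gene Supv3l1 (-0.44).

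Of 20 mitochondrial aminoacyl-tRNA synthetase and amidotransferase genes 1 rose and 2 fell, with a median of 0.01. Yars2, the tyrosyl-tRNA synthetase, had 15.1 and 13.7 TPM in YAP5SA against 5.88 and 7.66 in YAP5SA-S94A, a difference of 0.99 ± 0.18 (SE, limma adjusted p = 0.00552). Gatb, a subunit of the glutaminyl-tRNA amidotransferase, and Hars2, the histidyl-tRNA synthetase, fell by 0.52 and 0.37 (limma adjusted p = 0.0179 and 0.0494). In each of these 4 lists, as among the members, the share of genes called (25.9%, 11.8%, 19.0% and 15% in the order given) lay below the 32.9% of all genes. Without YAP5SA-S94A replicate 1 or without replicate 2 of that form, the counts of genes called higher and lower were 1 and 2 for assembly, 0 and 1 for translation factors, 0 and 1 for transcription and RNA processing, and 1 and 0 for the synthetases.

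**Figure D4:**
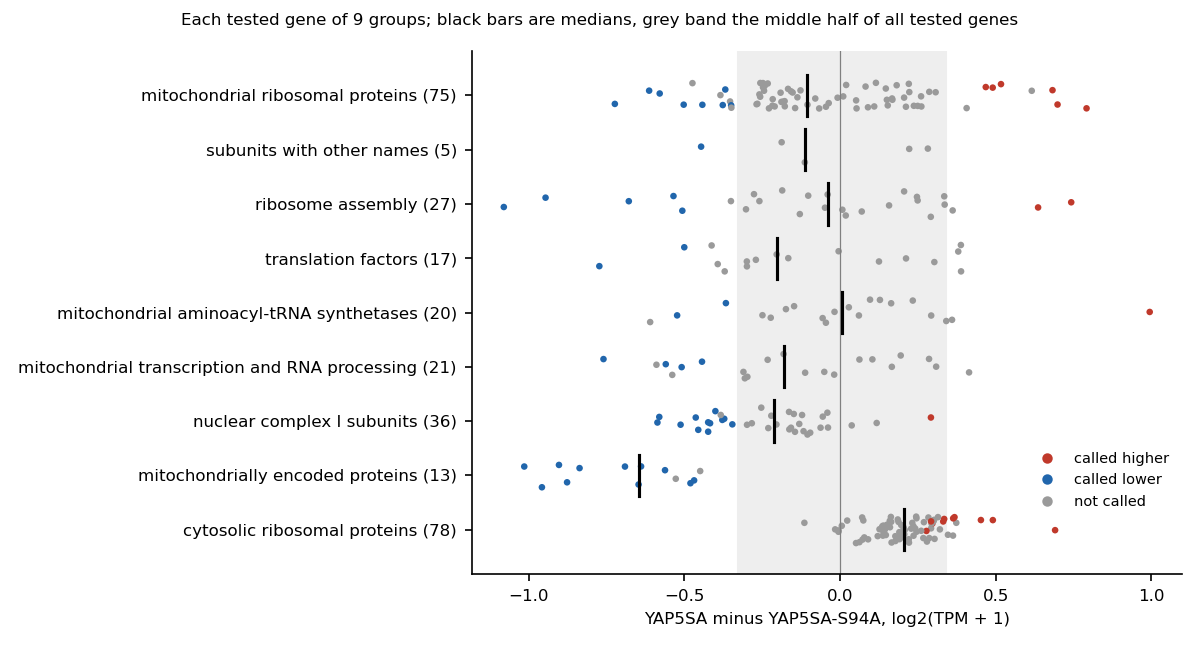
Difference in log2(TPM + 1) between the YAP forms (x axis, positive where YAP5SA is higher) for every tested gene of 9 groups (y axis, number of genes in brackets), red called higher, blue called lower, grey not called; black bars are group medians and the grey band spans the quartiles of all genes tested (-0.33 to 0.34). The members lie on both sides of 0 around a median of -0.10, while the mitochondrially encoded proteins all lie below 0 (median -0.65).

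The regulators known to act on genes of this kind also differed in direction. Of 9 tested, 2 rose and 3 fell, so 55.6% were called against 32.9% of all genes. Without the filter on low levels, and also without the intensity trend, 2 were called higher and 1 lower. Myc, a driver of growth and ribosome production, had 26.6 and 24.6 TPM in YAP5SA against 8.91 and 8.60 in YAP5SA-S94A, a difference of 1.45 ± 0.14 (SE, limma adjusted p = 3.69e-04). Pprc1, a coactivator of the PGC-1 family induced by growth signals, had 24.7 and 22.6 TPM against 14.4 and 14.7 (0.66, limma adjusted p = 0.00871). The other members of that family fell.

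Ppargc1a, which encodes the coactivator PGC-1alpha of mitochondrial biogenesis, had 24.0 and 17.3 TPM in YAP5SA against 37.8 and 41.1 in YAP5SA-S94A (-0.92 ± 0.17 SE, limma adjusted p = 0.00620). Ppargc1b had 15.3 and 9.23 TPM against 22.2 and 20.6 (-0.79, limma adjusted p = 0.0338), and Esrra, a nuclear receptor that works with both, 80.3 and 54.8 against 99.8 and 97.6 (-0.57, limma adjusted p = 0.0434). The remaining regulators of the list, Nrf1, Gabpa, Gabpb1 and Yy1, were not called. Nrf1 had 17.7 and 18.1 TPM against 13.9 and 16.7 (0.22), Gabpa 22.9 and 25.8 against 24.8 and 24.9 (-0.03), Gabpb1 17.0 and 17.0 against 13.5 and 11.8 (0.40) and Yy1 32.3 and 30.3 against 36.6 and 35.2 (-0.19), with limma adjusted p between 0.0718 and 0.876.

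Many members lie head to head with another gene. In the deposited coordinates, 26 of the 75 members (34.7%) had an expressed gene on the opposite strand that started within 1000 bases of their own start, against 15.7% of the 13418 entries with a mean of at least 1 TPM. Of the 26 neighbours 7 were called (26.9%), and 13 of the 25 pairs had the same sign. Mrpl46 and Mrps11, both members, form such a pair with each other and neither was called. Mrpl49 rose while Fau, a cytosolic ribosomal protein gene starting 186 bases away with 1332 and 1183 TPM against 1151 and 1109, was not called (0.15). Mrpl32 fell while Psma2, a proteasome subunit gene starting 210 bases away, had overlapping values of 232 to 245 TPM (-0.01). Mrpl18 was not called (-0.16) while Tcp1, a chaperonin subunit gene starting 360 bases away, rose from 158 and 163 TPM in YAP5SA-S94A to 228 and 268 in YAP5SA (0.62, limma adjusted p = 0.00483). In 1 pair both genes were called, Mrpl41 and Pnpla7, both lower (-0.35 and -1.27). This pair was named after its values were seen. Whether reads were counted by strand is not given in the sources used here, and 13 members (17.3%, against 14.0% of all expressed entries) overlap an expressed gene transcribed the other way, so their levels are less certain.

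The promoters of the members were searched for short motifs in windows from RefSeq (build GRCr8) that reach from 250 bases before to 50 bases after the annotated start, and 61 of the 75 members had a window. CCGGAAG (or CTTCCGG on the other strand), the core bound by ETS factors such as GABPA, was in 34.4% of the members' windows, against 17.8% of those of all tested genes and 9.22% of all promoters. ATGGCG (or CGCCAT), the core bound by YY1, was in 32.8%, 17.8% and 10.6% in the same order. The palindrome TGCGCA, a half-site of NRF1, was in 26.2%, 13.7% and 7.68%. The SP1 motif GGGCGG (or CCGCCC) was in fewer of the members' windows than in those of tested genes, with 50.8%, 62.4% and 34.9%. The palindromic E-box CACGTG, bound by MYC, was in 9.84%, 9.47% and 6.65%, and the TEAD motif GGAATG (or CATTCC) in 6.56%, 11.3% and 13.9%. The median GC content of the windows was 56.0%, 61.0% and 52.3%. A match is a description of the letters and not a site of binding, and no test of these shares was run.

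Among the called members with a window, 5 higher and 6 lower, those with a GABPA, NRF1 or YY1 match are shown to set the promoters of genes that moved in opposite directions side by side. Each window is 300 bases in length, 5′ to 3′ on the strand of the gene, with the matches to these 3 motifs in capitals. Mrps10 (chr9:21122404-21122703, minus strand), Mrpl17 (chr1:169575650-169575949, minus strand) and Mrpl33 (chr6:30553938-30554237, minus strand) rose. Mrpl41 (chr3:28179706-28180005, minus strand), Mrpl3 (chr8:114548720-114549019, plus strand) and Mrpl32 (chr17:55260401-55260700, plus strand) fell. These coordinates are of GRCr8 and not of the build of the expression tables.
Mrps10: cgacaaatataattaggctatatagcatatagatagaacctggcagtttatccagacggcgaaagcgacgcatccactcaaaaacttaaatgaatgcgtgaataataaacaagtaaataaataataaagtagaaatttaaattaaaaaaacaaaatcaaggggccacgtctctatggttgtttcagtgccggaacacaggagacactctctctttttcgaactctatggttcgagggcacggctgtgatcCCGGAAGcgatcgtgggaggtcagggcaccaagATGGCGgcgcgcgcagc
Mrpl17: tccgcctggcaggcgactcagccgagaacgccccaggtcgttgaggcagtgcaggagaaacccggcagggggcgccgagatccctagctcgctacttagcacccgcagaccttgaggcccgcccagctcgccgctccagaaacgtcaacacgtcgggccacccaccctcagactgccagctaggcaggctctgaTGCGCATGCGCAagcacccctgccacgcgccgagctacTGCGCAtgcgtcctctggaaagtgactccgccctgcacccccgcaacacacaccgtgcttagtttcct
Mrpl33: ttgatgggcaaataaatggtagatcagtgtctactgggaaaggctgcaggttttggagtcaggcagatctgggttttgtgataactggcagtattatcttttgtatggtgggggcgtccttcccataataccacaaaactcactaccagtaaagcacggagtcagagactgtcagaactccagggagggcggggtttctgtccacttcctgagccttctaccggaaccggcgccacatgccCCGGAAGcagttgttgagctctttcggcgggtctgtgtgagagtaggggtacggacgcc
Mrpl41: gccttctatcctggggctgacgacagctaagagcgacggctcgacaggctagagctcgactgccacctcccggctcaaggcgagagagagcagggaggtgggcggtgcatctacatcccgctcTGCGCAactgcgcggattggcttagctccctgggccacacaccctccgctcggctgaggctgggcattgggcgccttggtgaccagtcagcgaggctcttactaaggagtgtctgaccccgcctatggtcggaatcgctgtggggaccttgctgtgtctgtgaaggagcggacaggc
Mrpl3: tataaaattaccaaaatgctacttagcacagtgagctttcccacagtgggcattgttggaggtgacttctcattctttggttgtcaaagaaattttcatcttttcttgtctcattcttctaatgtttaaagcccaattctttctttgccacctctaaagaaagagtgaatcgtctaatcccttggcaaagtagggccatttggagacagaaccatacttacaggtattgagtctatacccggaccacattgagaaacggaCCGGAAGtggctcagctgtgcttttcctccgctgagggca
Mrpl32: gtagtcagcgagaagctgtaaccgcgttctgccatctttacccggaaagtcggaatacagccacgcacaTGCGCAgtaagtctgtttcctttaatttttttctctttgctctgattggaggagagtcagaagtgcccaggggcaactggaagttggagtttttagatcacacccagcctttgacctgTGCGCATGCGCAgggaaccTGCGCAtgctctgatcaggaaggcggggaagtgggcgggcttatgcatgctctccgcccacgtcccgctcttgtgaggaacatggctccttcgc

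Matches to the GABPA and NRF1 motifs stand both in genes that rose and in genes that fell. The YY1 core is in 1 of the 5 windows of genes that rose and 0 of the 6 of genes that fell. It is in 17.8% of the windows of tested genes, and so few windows cannot show a difference by direction. With the annotated start as position 0, the GABPA core begins at 0 in Mrps10, at -9 in Mrpl33 and at 10 in Mrpl3. The NRF1 half-site occurs 3 times in Mrpl17, beginning at -56, -50 and -18, and 4 times in Mrpl32, beginning at -181, -63, -57 and -44. In both genes a pair of half-sites directly follow each other, at -56 and -50 in Mrpl17 and at -63 and -57 in Mrpl32. Mrpl41 holds 1 half-site, beginning at -127, and Mrps10 also holds the YY1 core, beginning at 33. Neither the TEAD motif nor the E-box was found in any of the 11 windows of called members. They are in 11.3% and 9.47% of the windows of tested genes, so few matches would be found in 11 windows in any case.

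**Figure D5:**
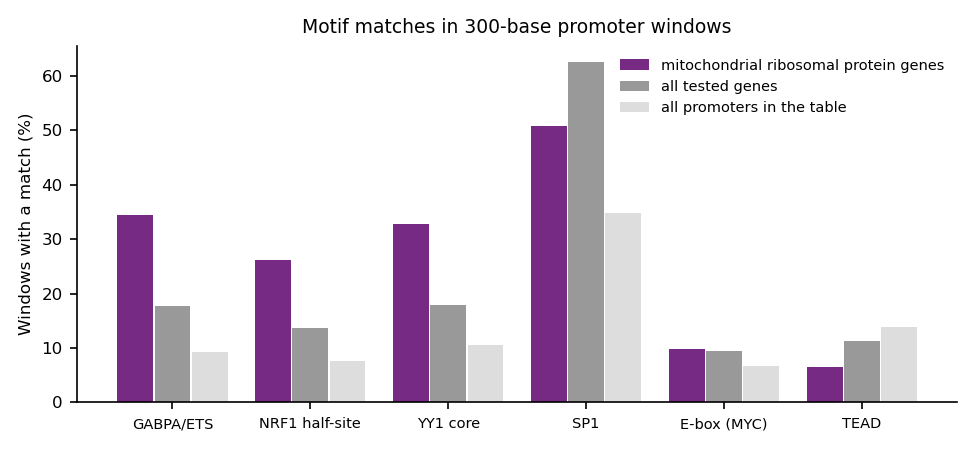
Share of promoter windows of 300 bases, in percent (y axis, from 0), that hold each of 6 motifs on either strand (x axis), for the 61 members with a window (purple), all tested genes with a window (dark grey) and all promoters of the RefSeq table (light grey). The GABPA, NRF1 and YY1 motifs are in 34.4%, 26.2% and 32.8% of the members' windows, above both other sets, whereas SP1 and TEAD are below the tested genes.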

How the data were processed

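RNA was measured in 4 libraries, 2 per YAP form, from directional poly(A) libraries per the labels' protocols. Per the submitters' processing notes, reads were handled with fastp, HISAT2 2.2.1 and StringTie 2.2.1 on the rat build rn7, whose settings are not given in the sources used here. The TPM and FPKM values per gene were computed by the authors and deposited in 1 table of 40903 entries per library. Per the file headers, another column holds the read coverage per base of each gene, a signal not scaled for depth. Read counts were not used here.

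TPM was summed over entries that share a name, and every tested member had 1 entry. Genes with a mean of at least 1 TPM were tested on log2(TPM + 1), which understates the change of low genes, with limma 3.58.1 in R 4.3.3 with a trend of variance on level, on 2 residual degrees of freedom and 5.09 from the prior. Benjamini-Hochberg adjustment ran over all tested genes, and "called", "rose" and "fell" mean an adjusted p under 0.05. Sums over the members were compared by an exact permutation test over libraries. The test was checked on simulated data with changes of a doubling or halving and more, larger than the difference of any member. That check does not cover differences of the members' size. Aligned sequence per library was derived from the ratio of coverage to FPKM. The number of libraries, 2 per form, limits the precision.

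The members and the gene lists were chosen with earlier results of these data known. The rule for named genes took the 6 largest increases and decreases among called members, the 4 most and least abundant members, those with a listed site in the ribosome, up to 4 called genes per other list with the smallest p, all regulators and subunits with other names, and head-to-head neighbours of these. Alternatives were other pseudocounts, filters, scalings, units and variance models, a fit with a replicate block, and leaving out single libraries. The remaining steps used pandas 2.3.3 and numpy 2.4.6 in Python 3.11.15, with matplotlib 3.10.9 for the plots. The result of 1 marker list is not reported here.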

Additional observations from a re-analysis of the deposited data

How the results depend on the processing

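Under every alternative run, members were called in both directions and the median stayed below 0, but the counts moved. The median also lay below that of all genes in every fit except the one without YAP5SA replicate 1. There it was -0.0324, beside -0.0352 for all genes. Without a filter on low levels 2 members were called higher and 3 lower, and without the intensity trend 3 and 3. With the mitochondrial chromosome left out 15 members were called lower, the median was -0.176 and the ratio of summed TPM 0.940. Leaving out each library in turn gave 4 to 12 members called higher, 3 to 16 called lower, medians of -0.136 to -0.0245 and 1312 to 2739 of all genes called lower. The ratio of summed TPM then ran from 0.966 to 1.01, turning above 1 without YAP5SA replicate 2 or YAP5SA-S94A replicate 1.

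Among the genes followed through every alternative, the difference of 6 that were not called changed sign when a library was left out. Its range over the 4 such fits was -0.115 to 0.052 for Gabpa, -0.145 to 0.0719 for Mrpl58, -0.0191 to 0.238 for Mrps27, -0.0447 to 0.0345 for Psma2, -0.324 to 0.0974 for Gadd45gip1 and -0.0249 to 0.00872 for Mrps11. With the replicate number as a replicate block, 8 members were called higher and 11 lower, among them all 14 called without it, with Mrpl36, Mrpl38, Mrpl44, Mrpl53 and Mrps18a gained. The correlation of the replicate differences between the forms was 0.101 over all genes. The names of the library files carry other numbers than the titles, so the numbers were read as names only. The causes of these changes were not tested.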
